A study of Homo sapiens with 6 samples.

Results

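The HLA class II genes, the invariant chain gene CD74 and their coactivator gene CIITA were followed across a pair of human leukemia cell lines, HEL and SET2. The 10 genes were HLA-DRA, HLA-DRB1, HLA-DPA1, HLA-DPB1, HLA-DQA1, HLA-DMA, HLA-DMB, HLA-DOA, CD74 and CIITA. They were chosen by symbol, with their levels in these arrays already known, and the difference between the lines is therefore described here without a test. A gene's level was the mean log2 signal of the probe sets, each covering part of a gene, to which the array's annotation gives that single symbol. The 10 genes make up 10 of 22320 genes and hold 268 of 259224 single-symbol probe sets. Among those 268, 166 had values of their own, because many probe sets of HLA-DRA (75 probe sets, 31 distinct), HLA-DPB1 (69, 22 distinct) and HLA-DQA1 (35, 24 distinct) repeated one another exactly on every array. Distinct here means not identical on every array. Some distinct probe sets still share most of their values, such as 17028322 and 17033613 of HLA-DRA. Counts of distinct probe sets are therefore not counts of separate signals.

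The series holds 6 arrays of the GeneChip Human Gene 2.0 ST type, 3 from HEL and 3 from SET2, with 1 array for each line and construct. Both lines are labelled as acute myeloid leukemia lines, and both are known to carry an activating JAK2 mutation. All cultures were transduced with lentivirus and kept in puromycin for 96 h, the control with the empty pLKO backbone, another with an shRNA against IGF1R and the last with a miR-125a sponge, a transcript meant to bind that microRNA. Each line is a single established line, so a difference between HEL and SET2 describes these lines and not a class of leukemia, and line and culture cannot be told apart. The median signal of the arrays lay between 5.69 and 5.75 on the log2 scale. Gene levels correlated at 0.976 to 0.991 within HEL, at 0.987 to 0.993 within SET2 and at 0.923 to 0.933 between the lines.

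HLA class II molecules are heterodimers of an alpha and a beta chain that display peptides from endocytosed proteins to CD4+ T cells. They are assembled in the endoplasmic reticulum on the invariant chain, and HLA-DM later exchanges the remaining invariant chain fragment for peptide, under the restraint of HLA-DO. CIITA does not bind DNA itself but is recruited by the RFX complex, NF-Y and CREB family proteins to the X and Y boxes of class II promoters, and it is the limiting factor for their transcription. Class II is found on B cells, dendritic cells and monocytes, on hematopoietic progenitors, and on many but not all myeloid leukemias. Class II genes are highly polymorphic. Whether sequence differences between HEL and SET2 touch single probes was not tested.

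The proximal promoters of 5 members are shown because class II promoters are where CIITA is recruited, and because their matches to the box cores differ. Of the stretches printed, that of HLA-DRB1 holds both cores, those of HLA-DMA and HLA-DPB1 the Y box core, and those of HLA-DQA1 and CD74 neither core. The sequences are RefSeq reference sequence of GRCh38.p14, not of HEL or SET2, and cover bases -140 to -1 from the annotated start, 5′ to 3′ in the direction of transcription. Their positions are chr6:32589849-32589988 (minus strand) for HLA-DRB1, chr6:32953098-32953237 (minus) for HLA-DMA, chr6:33075850-33075989 (plus) for HLA-DPB1, chr6:32637266-32637405 (plus) for HLA-DQA1 and chr5:150412911-150413050 (minus) for CD74. Capitals mark matches on either strand to the X box core GCAAC, the Y box core GATTGG, the shorter Y box form ATTGG and the motif TGATGA.
HLA-DRB1: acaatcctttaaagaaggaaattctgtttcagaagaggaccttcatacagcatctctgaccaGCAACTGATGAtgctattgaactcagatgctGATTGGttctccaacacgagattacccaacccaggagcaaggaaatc
HLA-DMA: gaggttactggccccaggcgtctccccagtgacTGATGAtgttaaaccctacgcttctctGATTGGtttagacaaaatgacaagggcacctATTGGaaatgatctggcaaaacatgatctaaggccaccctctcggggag
HLA-DPB1: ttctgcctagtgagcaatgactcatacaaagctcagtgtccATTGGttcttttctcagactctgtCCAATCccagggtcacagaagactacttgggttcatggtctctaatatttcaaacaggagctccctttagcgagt
HLA-DQA1: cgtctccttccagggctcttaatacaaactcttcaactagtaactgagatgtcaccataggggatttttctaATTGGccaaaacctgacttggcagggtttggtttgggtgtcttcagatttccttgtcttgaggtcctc
CD74: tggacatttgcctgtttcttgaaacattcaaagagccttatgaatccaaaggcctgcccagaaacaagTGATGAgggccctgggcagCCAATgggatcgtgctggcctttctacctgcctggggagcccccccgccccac

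An entry of 250 bases before and 50 after the start was at hand for 8 of the 10 members, all but HLA-DRA and CIITA. The Y box core GATTGG was present in 5 of the 8, namely HLA-DRB1, HLA-DPB1, HLA-DMA, HLA-DMB and HLA-DOA, and in 15.1% of all 35116 RefSeq promoter entries. The X box core GCAAC was present in 4, HLA-DRB1, HLA-DPA1, HLA-DMA and HLA-DOA, against 33.6% of all entries. In HLA-DRB1 an X box core at -78 preceded the Y box core at -47, and in HLA-DOA the cores lay at -100 and -68. The X box core of HLA-DMA lay farther out, at -215, and its Y box core at -80. The interferon-type GAS element TTCNNNGAA was present in HLA-DQA1 alone, against 7.66% of all entries. A pair of motifs was added after the promoters had been read. ATTGG, which lies within GATTGG, was present in 7 of the 8, all but HLA-DPA1, and in 34.6% of all entries. TGATGA was present in HLA-DRB1, HLA-DPA1, HLA-DMA, HLA-DMB and CD74, and in 10.9% of all entries. Its match in HLA-DPA1 lay after the start, at 32, and on the opposite strand. The other matches to TGATGA lay between -107 and -72. HLA-DPA1 had 2 entries, and the motifs listed for it lie in 1 of them. These matches describe the letters of the reference and are not evidence of binding.

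**Figure D1:**
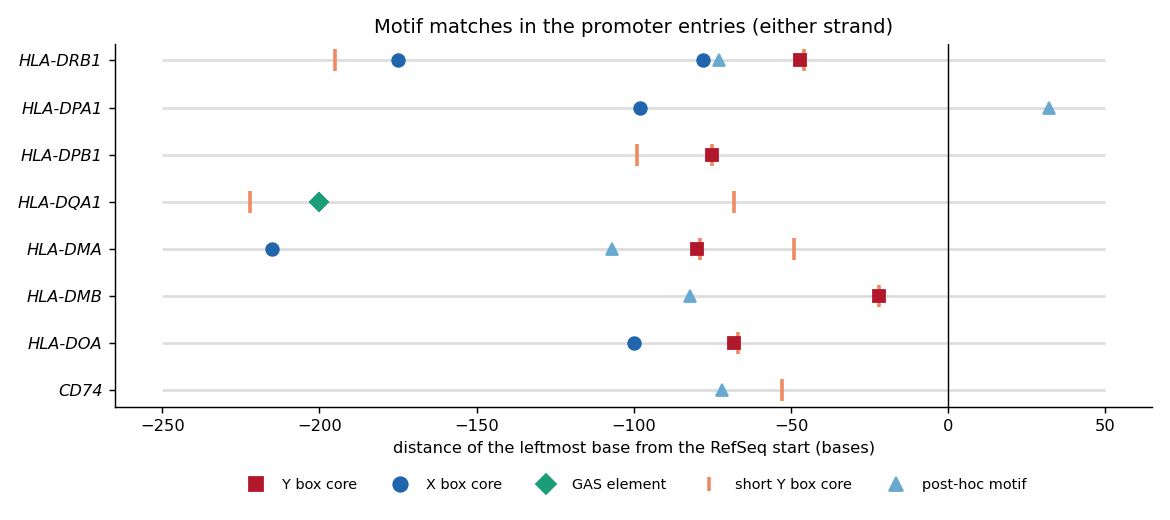
Distance in bases of each motif match from the RefSeq start (vertical line at 0) in the promoter entries of 8 members, 1 grey line per gene. Squares mark the Y box core, circles the X box core, diamonds the GAS element, bars the short Y box core and triangles the motif added after reading the promoters; the Y box cores of 5 genes lie between -80 and -22.

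CIITA, the coactivator, was higher on every SET2 array than on any HEL array. In HEL, CIITA had log2 levels of 6.76 (control), 6.64 (IGF1R shRNA) and 6.96 (sponge), and in SET2 of 8.84, 9.09 and 8.82. Values below are given in this order of constructs. The means were 6.79 ± 0.163 in HEL and 8.91 ± 0.154 in SET2 (SD over the 3 arrays of a line, which carry different constructs). The difference of 2.13 on the log2 scale corresponds to 4.36-fold, and 22 of its 23 probe sets had all SET2 arrays above all HEL arrays. Over all distinct single-symbol probe sets this share was 15.2%, to set beside the probe set counts of each gene below. The brightest CIITA probe set, 16815836, read 8.68, 8.41 and 8.84 in HEL and 11.48, 11.70 and 11.47 in SET2. The exception, 16815843, was bright in both lines, at a mean of 9.09 in HEL and 9.39 in SET2.

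CD74 encodes the invariant chain, the chaperone that fills the peptide groove during assembly. Its levels were 6.96, 6.63 and 6.90 in the control, IGF1R shRNA and sponge arrays of HEL, and 8.42, 8.92 and 8.38 in those of SET2. The lines did not overlap, and their means of 6.83 ± 0.174 and 8.57 ± 0.301 (SD, n = 3) differed by 1.74, or 3.35-fold. Among its 15 probe sets 10 separated the lines and 5 overlapped. The brightest, 17001659, stood between 9.54 and 9.75 in HEL and between 12.03 and 12.35 in SET2.

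HLA-DRA, the nearly invariant alpha chain of HLA-DR, showed the largest difference among the 10 genes as means of their probe sets. With each gene's brightest probe set HLA-DQA1 came first, at 4.63 against 4.23 for HLA-DRA. It stood at 6.92, 6.92 and 6.67 in HEL and at 11.37, 11.62 and 11.23 in SET2. The means were 6.84 ± 0.146 and 11.41 ± 0.198 (SD, n = 3), a difference of 4.57 or 23.7-fold. Ranked by how much higher SET2 was, HLA-DRA was number 15 of all 22320 genes. Each of its 31 distinct probe sets placed SET2 above HEL, by 2.34 to 6.21. In probe set 17028324 the HEL arrays read 6.40, 6.14 and 6.09 and the SET2 arrays 12.44, 12.62 and 12.20.

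HLA-DRB1, the polymorphic partner of HLA-DRA, was represented by 2 single-symbol probe sets, both dim. Its levels were 3.62, 3.49 and 3.76 in HEL and 4.24, 4.46 and 4.27 in SET2, below the median gene level of 5.55 on every array. The lines did not overlap in the gene mean, with 3.62 ± 0.133 and 4.32 ± 0.121 (SD, n = 3) and a difference of 0.70 (1.63-fold), but 1 of the 2 probe sets overlapped. Probe set 17017901 read 3.56, 3.15 and 3.06 in HEL and 4.07, 4.96 and 4.13 in SET2, while 17017904 differed by 0.27. At this signal, without a measured background, the level of HLA-DRB1 in either line cannot be told from noise.

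The DQ alpha chain HLA-DQA1 followed HLA-DRA in size of the difference when probe sets were averaged. It stood at 4.28, 4.13 and 4.26 in HEL and at 7.28, 7.54 and 7.10 in SET2. The means of 4.22 ± 0.080 and 7.31 ± 0.221 (SD, n = 3) differed by 3.08, or 8.48-fold. The HEL levels lie under the median gene level of 5.55, near the lower end of the scale, where no background was measured. Its probe sets divided, with 13 of 24 distinct ones higher on all SET2 arrays and 11 overlapping. Probe set 17031168 was dim in HEL alone, with 2.75, 2.56 and 2.62 in HEL against 10.49, 11.24 and 10.41 in SET2. Probe set 17035905 showed no such gap, with means of 6.86 in HEL and 6.69 in SET2.

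Probe sets that the annotation assigns to HLA-DQA1 together with another symbol were left out of the gene level and are given here as values. Of 15 distinct ones shared with DQ-A1, 10 had all SET2 arrays above all HEL arrays and 1 the reverse, with differences from -0.84 to 6.85. All 3 shared with HLA-DQA2 were higher in SET2, by 0.38 to 5.79. A pair shared by HLA-DMA and HLA-DMB was higher in SET2 by 0.79 and 1.80. Signal from near-identical paralogs such as HLA-DQA2 cannot be separated from that of HLA-DQA1 in such probe sets.

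The DP chains differed less than HLA-DRA and HLA-DQA1. HLA-DPA1, the alpha chain, stood at 6.65, 6.60 and 6.58 in HEL and at 7.62, 7.49 and 7.47 in SET2, a difference of 0.92 (1.89-fold; means 6.61 ± 0.037 and 7.53 ± 0.085, SD, n = 3). HLA-DPB1, the beta chain, stood at 6.71, 6.72 and 6.80 in HEL and at 8.32, 8.80 and 8.37 in SET2, a difference of 1.76 (3.38-fold; means 6.74 ± 0.048 and 8.50 ± 0.264). Neither gene's lines overlapped. The brightest probe set of HLA-DPA1, 17018046, lay between 9.64 and 9.94 in HEL and between 11.20 and 11.68 in SET2, but 2 of its 13 probe sets were higher on all HEL arrays.

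HLA-DPB1 held the widest spread of probe sets, in both directions. Probe set 17028421 read 2.91, 2.72 and 3.45 in HEL and 12.50, 12.73 and 12.40 in SET2, a difference of 9.52. Probe set 17007366 read the other way, with 9.09, 8.95 and 9.14 in HEL and 2.77, 3.85 and 3.53 in SET2, a difference of -5.68. Both carry the single symbol HLA-DPB1, and the gene mean averages over both. The values of 17007366 recur in 7 of the 69 probe sets and those of 17028421 do not recur, so the former weigh more in that mean. Of its 22 distinct probe sets 17 placed SET2 above HEL, 1 placed HEL above SET2 and 4 overlapped. With repeated probe sets counted once, an alternative added after seeing the data, the gene difference was 2.02 in place of 1.76 for HLA-DPB1 and 2.43 in place of 3.08 for HLA-DQA1.

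The peptide-loading genes were also higher in SET2. HLA-DMA, the alpha chain of the peptide exchanger, stood at 6.74, 6.86 and 6.90 in HEL and at 8.34, 8.64 and 8.26 in SET2, a difference of 1.58 (3.0-fold; means 6.83 ± 0.085 and 8.42 ± 0.199, SD, n = 3). HLA-DMB, its beta chain, stood at 5.01, 5.52 and 4.94 in HEL and at 6.29, 6.33 and 6.30 in SET2, a difference of 1.15 (2.22-fold; means 5.16 ± 0.313 and 6.31 ± 0.020). The HEL array with the IGF1R shRNA construct stood apart from the other two for HLA-DMB, and the SET2 arrays were nearly level. Its brightest probe set, 17018009, did not separate the lines, at means of 10.23 and 10.36, whereas 17018002 stood at 4.90 and 8.21.

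HLA-DOA, the alpha chain of the DM inhibitor, had the smallest difference among the 10 genes as means of their probe sets. With the median of the probe sets HLA-DRB1 was lower, at 0.70 against 0.83 for HLA-DOA, and with the brightest HLA-DMB (0.13) and HLA-DRB1 (0.27) were lower than HLA-DOA (0.82). It stood at 4.88, 4.86 and 4.75 in HEL and at 5.26, 5.57 and 5.65 in SET2, a difference of 0.66 (1.58-fold; means 4.83 ± 0.070 and 5.49 ± 0.205, SD, n = 3). The lines did not overlap, and the smallest gap between them, 0.38 between the control arrays, was about as wide as the span of the SET2 arrays. Only 4 of its 13 probe sets separated the lines. Among them 17018035 read 2.66, 2.51 and 3.62 in HEL and 6.54, 6.90 and 7.11 in SET2.

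**Figure D2:**
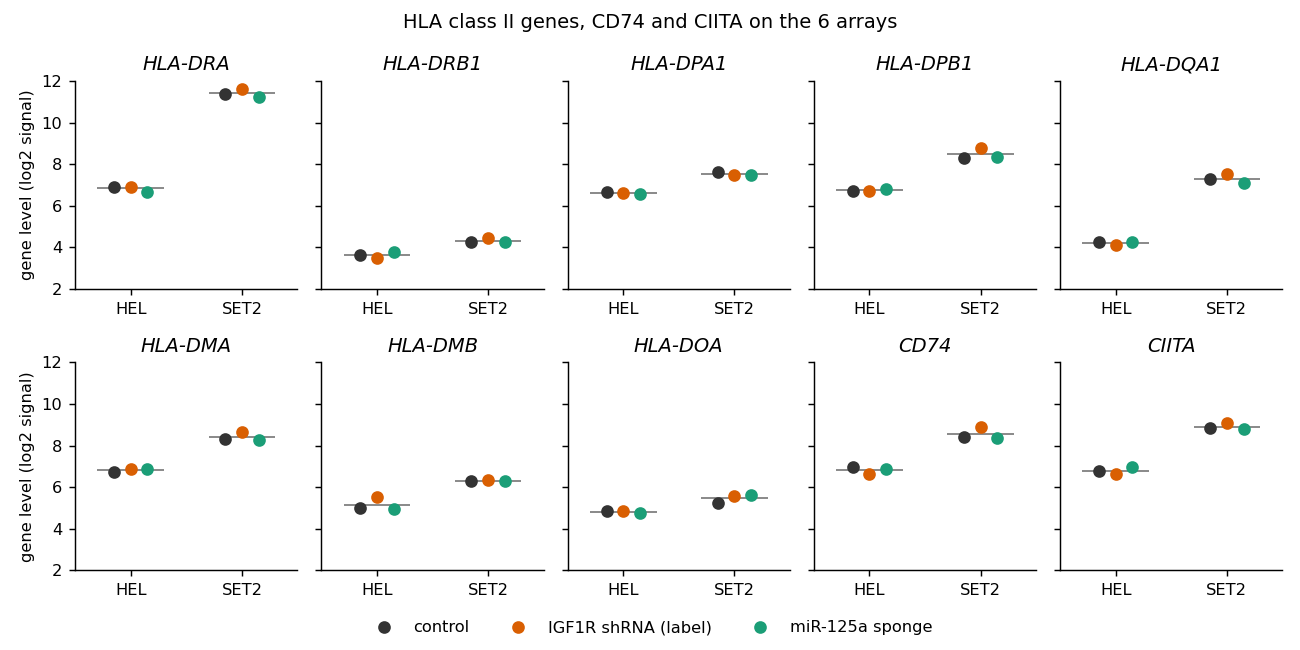
Gene level (log2 signal, mean of the single-symbol probe sets) of each of the 10 genes on the 6 arrays; points are single arrays coloured by construct, and grey lines are the means of the 3 arrays of a line. In each panel the SET2 points lie above the HEL points, from a difference of 0.66 for HLA-DOA to 4.57 for HLA-DRA.

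All 10 members had every SET2 array above every HEL array, an arrangement found for 20.0% of all genes, with the reverse in 19.2%. With the further demand of at least 2-fold the count was 7 of 10, against 4.43% of all genes. These counts follow from how the members were chosen, and nothing is read from them. The median difference over the members was 1.66, against -0.01 over all genes. Set by construct, the difference ran from 4.45 to 4.70 for HLA-DRA, from 2.85 to 3.41 for HLA-DQA1 and from 1.85 to 2.45 for CIITA. These 3 did not overlap one another as means of all their probe sets. With repeated probe sets counted once, the mean difference of HLA-DQA1 was 2.43, inside the range of CIITA. HLA-DPB1 (1.58 to 2.08), CD74 (1.46 to 2.29) and HLA-DMA (1.37 to 1.78) overlapped one another, and the first 2 reached into the range of CIITA. The lowest were HLA-DMB (0.81 to 1.36), HLA-DPA1 (0.89 to 0.98), HLA-DRB1 (0.52 to 0.97) and HLA-DOA (0.38 to 0.90), which overlapped as well.

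Over the 166 distinct probe sets, 120 had all SET2 arrays above all HEL arrays, against 15.2% of all distinct single-symbol probe sets, and 4 had the reverse, against 14.5%. The remaining 42 overlapped. HLA-DRA and CIITA were nearly uniform in direction, with 31 of 31 and 22 of 23 probe sets higher on all SET2 arrays. The size of the difference varied, from 2.34 to 6.21 for HLA-DRA and from 0.30 to 3.27 for CIITA. The other genes mixed separated and overlapping probe sets, with 7 of 11 higher for HLA-DMA, 7 of 12 for HLA-DMB and 8 of 13 for HLA-DPA1.

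**Figure D3:**
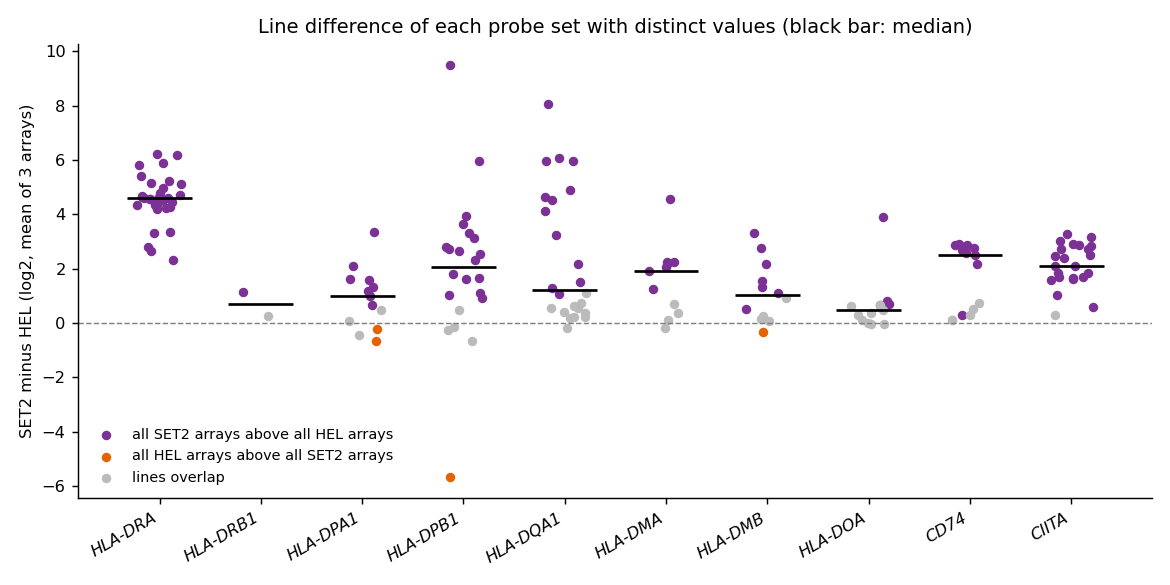
SET2 minus HEL (log2, mean of 3 arrays each) for each of the 166 probe sets with distinct values, by gene; purple points have all SET2 arrays above all HEL arrays, orange points the reverse, grey points overlap, and black bars are medians. HLA-DRA, CIITA, CD74 and HLA-DRB1 lie above 0 throughout, while HLA-DPB1 spans from -5.68 to 9.52.

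The arrays labelled IGF1R shRNA were compared with the control arrays to ask whether class II genes differ where the receptor of insulin-like growth factor is targeted. IGF1R itself stood at 8.63 in the HEL control and 8.56 on the labelled array, and at 8.32 and 8.33 in SET2. No clear loss of the target was seen, and these arrays are named by their label. In SET2, 9 of the 10 members were higher on the array labelled IGF1R shRNA than on the control array, with a median log2 difference of 0.26 and a range from -0.135 for HLA-DPA1 to 0.499 for CD74. Over all genes the median was -0.03, and 45.0% of genes were higher. In HEL, 4 were higher and 6 lower, with a median of -0.04, from -0.328 for CD74 to 0.50 for HLA-DMB. Over all genes in HEL the median was 0.002, and 50.1% of genes were higher. Each of these values compares 1 array with 1 other and has no replicate.

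Within SET2 the shRNA-labelled array was the highest of the 3 for 8 of the 10 genes, all but HLA-DPA1 and HLA-DOA, against 34.4% of all genes. Within HEL it was the lowest for 4, against 36.6%. At the level of distinct probe sets it was the highest SET2 array for 116 of 166, against 33.5% of all distinct probe sets. All 31 probe sets of HLA-DRA had this order, as had 14 of 15 for CD74, 17 of 22 for HLA-DPB1, 16 of 23 for CIITA and 16 of 24 for HLA-DQA1. It held for 7 of 11 for HLA-DMA, 6 of 13 for HLA-DPA1 and 1 of 2 for HLA-DRB1. For HLA-DMB and HLA-DOA it held for 4 of 12 and 4 of 13, near the share of all distinct probe sets. Probe sets of 1 array share their RNA and hybridisation, so these counts describe that array and are not repeated measurements of the construct.

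Averaged over the lines, 0 of the 10 members passed limma's test at an adjusted p of 0.05, and neither did any other gene (0.0% of 22320). At an unadjusted p of 0.05, 1656 genes passed, where 1116 would by chance, and none of the 10 was among them. The largest average was that of HLA-DMB at 0.27 (SE 0.18, adjusted p = 0.761, higher in both lines), which rests on HEL, where it differed by 0.50, more than on SET2, at 0.04. HLA-DPB1 averaged 0.25 (SE 0.18, adjusted p = 0.768), with 0.01 in HEL and 0.48 in SET2. HLA-DMA averaged 0.21 (SE 0.16, adjusted p = 0.780), at 0.12 in HEL and 0.30 in SET2. For HLA-DRA the average was 0.12 (95% confidence interval -0.23 to 0.47), for CD74 0.09 (-0.46 to 0.63) and for CIITA 0.07 (-0.37 to 0.50), intervals that reach to both sides of 0. Without the SET2 array of this label the HEL array alone stands for the construct, and the median change of the members was -0.034.

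The sponge arrays were compared with control to ask whether binding of miR-125a goes with a difference in the same genes. Again 0 of the 10 members passed, with an adjusted p of 1 for each, and limma called none of the 22320 genes (0.0%), of which 412 passed at an unadjusted p of 0.05. In HEL 4 members were higher and 6 lower than in the control, with a median of -0.04 and a range from -0.253 for HLA-DRA to 0.202 for CIITA. In SET2 the split was also 4 and 6, with a median of -0.03, from -0.177 for HLA-DQA1 to 0.391 for HLA-DOA. Over all genes the median was -0.008 in HEL and -0.033 in SET2, and 48.3% and 42.7% of genes were higher. HLA-DRA was lower on both sponge arrays, with an average of -0.20 (SE 0.15, 95% confidence interval -0.55 to 0.15). HLA-DPA1 was lower on both as well, at -0.07 in HEL and -0.16 in SET2, and HLA-DPB1 and HLA-DRB1 were higher on both, by at most 0.14. Across both constructs and both lines no member differed from its control array by more than 0.50, while the gene means of the lines differed by 0.66 to 4.57.

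**Figure D4:**
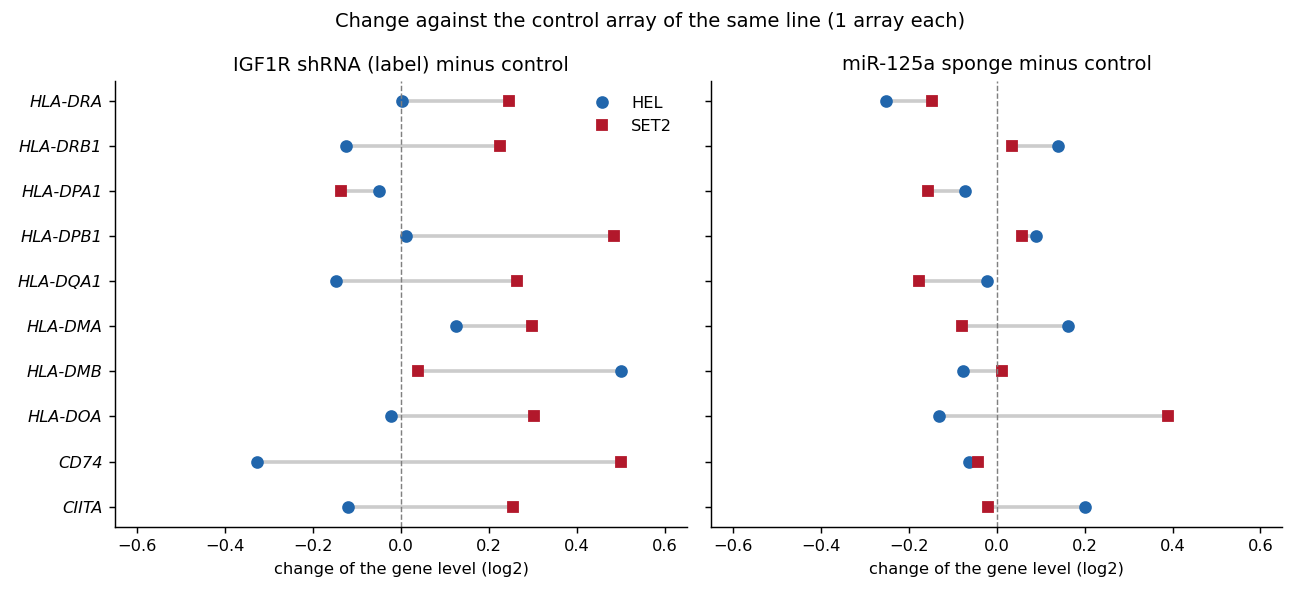
Difference from the control array of the same line (log2 gene level) for the array labelled IGF1R shRNA (left) and the miR-125a sponge array (right); circles are HEL, squares are SET2, each from 1 array against 1. On the left 9 of 10 squares lie above 0 and 4 of 10 circles do, where 45.0% (SET2) and 50.1% (HEL) of all genes were higher. On the right 4 of each do, where 42.7% (SET2) and 48.3% (HEL) of all genes were higher.

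The machinery around class II was followed in lists that were drawn up with earlier results of these data known. To set beside the counts of all these lists, 20.0% of all genes had every SET2 array above every HEL array and 19.2% the reverse. Of 7 other class II loci measured, 6 had all SET2 arrays above all HEL arrays and 1 overlapped, with a median difference of 1.32. HLA-DQA2 stood at 4.28, 4.27 and 4.55 in HEL and at 6.62, 6.97 and 6.67 in SET2. HLA-DQB1, the DQ beta chain, stood at 4.81, 4.76 and 5.08 against 6.78, 7.06 and 6.59, and the pseudogene HLA-DPB2 differed by 1.56. The exception was HLA-DRB5, named here after its values were seen, at 4.64, 4.97 and 4.46 in HEL and 4.67, 4.99 and 4.47 in SET2.

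Among 12 class II promoter factors and CIITA partners, 6 were higher on all SET2 arrays, 1 was lower and 5 overlapped, with a median of 0.30 and none at 2-fold. The 3 subunits of the RFX complex, which binds the X box, did not separate the lines. RFX5 stood at 7.30, 6.91 and 7.41 in HEL and at 7.29, 6.81 and 7.04 in SET2, RFXAP differed by -0.30 and RFXANK by 0.27, each with overlapping arrays. The largest differences were 0.68 for the acetyltransferase CREBBP, 0.67 for NFYB, a subunit of the Y box factor NF-Y, and 0.62 for EP300.

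Of 8 genes on the interferon gamma route to CIITA, 3 were higher on all SET2 arrays, 3 were lower and 2 overlapped, with a median of 0.05. IRF1, a transcription factor that acts on the interferon-responsive CIITA promoter, stood at 6.13, 5.93 and 6.17 in HEL and at 7.88, 7.82 and 7.83 in SET2, a difference of 1.77. The receptor chain IFNGR2 differed by 0.86 and the kinase JAK1 by -0.65. Among 8 lineage factors known to act on CIITA the median was 0.11. SPI1, the myeloid factor PU.1, was lower in SET2 by 0.87, with 7.99, 7.44 and 7.99 in HEL and 7.01, 6.83 and 6.96 in SET2. MYB was higher in SET2 by 0.82, and PRDM1, which represses CIITA in plasma cells, by 0.27.

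Of 9 genes of class II antigen processing and turnover, 3 were higher on all SET2 arrays and 6 overlapped, with a median of 0.01. MARCH8, a ubiquitin ligase that directs class II molecules to lysosomes in some cells, differed by 1.55, and the lysosomal proteases CTSL1 and CTSD by 0.89 and 0.72. Of 8 costimulation and adhesion genes, 1 was higher on all SET2 arrays, 2 were lower and 5 overlapped. ICOSLG, the ligand of ICOS, differed by 1.24, CD274, which encodes PD-L1, by -1.17 and the CD28 ligand CD80 by -0.75.

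Genes that neighbour the members were described beside them. Of 14 in or beside the class II region of chromosome 6, 4 were higher on all SET2 arrays, 4 were lower and 6 overlapped, with a median of 0.03. TAP1, a peptide transporter of the class I pathway, differed by 1.72, with 8.12, 6.69 and 8.16 in HEL and 9.46, 9.39 and 9.28 in SET2. The class I chaperone TAPBP differed by 1.15 and HSD17B8 by 0.56. Of 7 neighbours of CIITA on chromosome 16, 4 were higher in SET2, 1 was lower and 2 overlapped, with a median of 0.67. EMP2 differed by 1.73, DEXI by 0.87 and NUBP1 by 0.74. Of 7 neighbours of CD74 on chromosome 5, 0 were higher in SET2, 2 were lower and 5 overlapped, with a median of -0.16. The ribosomal protein gene RPS14 differed by -1.11, TCOF1 by -0.69 and CAMK2A by -0.36. Copy number was not measured.

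Markers of the cell types best known for class II included dim and bright genes in both lines. B cell markers overlapped between the lines for 7 of 7 genes, with a median of -0.10 and mean list levels of 5.07 to 5.26 in HEL and 4.98 to 5.21 in SET2. PAX5 differed by -0.20, CD22 by -0.12 and CD79A by -0.11. Of 5 monocyte and macrophage markers 1 was higher on all SET2 arrays, 2 were lower and 2 overlapped, at list levels of 4.97 to 5.02 and 5.13 to 5.18. LYZ, which encodes lysozyme, differed by 1.47, CSF1R by -0.36 and CD163 by -0.22. Of 8 dendritic cell markers 2 were higher, 2 lower and 4 overlapped (5.17 to 5.35 and 5.14 to 5.36), with ZBTB46 at 0.91, BATF3 at -0.42 and FCER1A at -0.40. On all arrays 4 of the 7 B cell, 3 of the 5 monocyte and 5 of the 8 dendritic cell markers lay under the median gene level. That level has as many of all genes above it as below. Bright markers included FCER1A, between 10.80 and 11.48 over the arrays, and LYZ, between 7.36 and 9.25.

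Progenitor, erythroid and megakaryocyte markers included several with large differences. Of 6 myeloid and progenitor markers 2 were higher on all SET2 arrays and 4 overlapped, with list levels of 6.54 to 6.97 in HEL and 8.33 to 8.59 in SET2. The progenitor antigen CD34 stood at 5.53, 5.34 and 5.20 in HEL and at 9.59, 9.49 and 9.58 in SET2, and CD38 differed by 5.57, whereas TYROBP differed by -0.63. Of 7 erythroid markers 3 were higher in SET2, 1 was lower and 3 overlapped (7.46 to 8.04 and 8.23 to 8.40), with HBG1 at 2.25, KLF1 at 0.98 and HBZ at 0.73. Of 7 megakaryocyte markers 0 were higher in SET2, 3 were lower and 4 overlapped (7.69 to 8.05 and 6.81 to 6.93), with GP9 at -3.21, ITGB3 at -2.31 and GP1BA at -0.79. Of 8 T and NK cell markers 1 was higher, 2 were lower and 5 overlapped (4.88 to 4.95 and 4.42 to 4.55), with CD2 at -2.12, NCR1 at -1.71 and CD3D at 0.11. The part of these marker differences in those of the class II genes was not tested. In none of the lists did a gene pass limma's test for either construct.

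**Figure D5:**
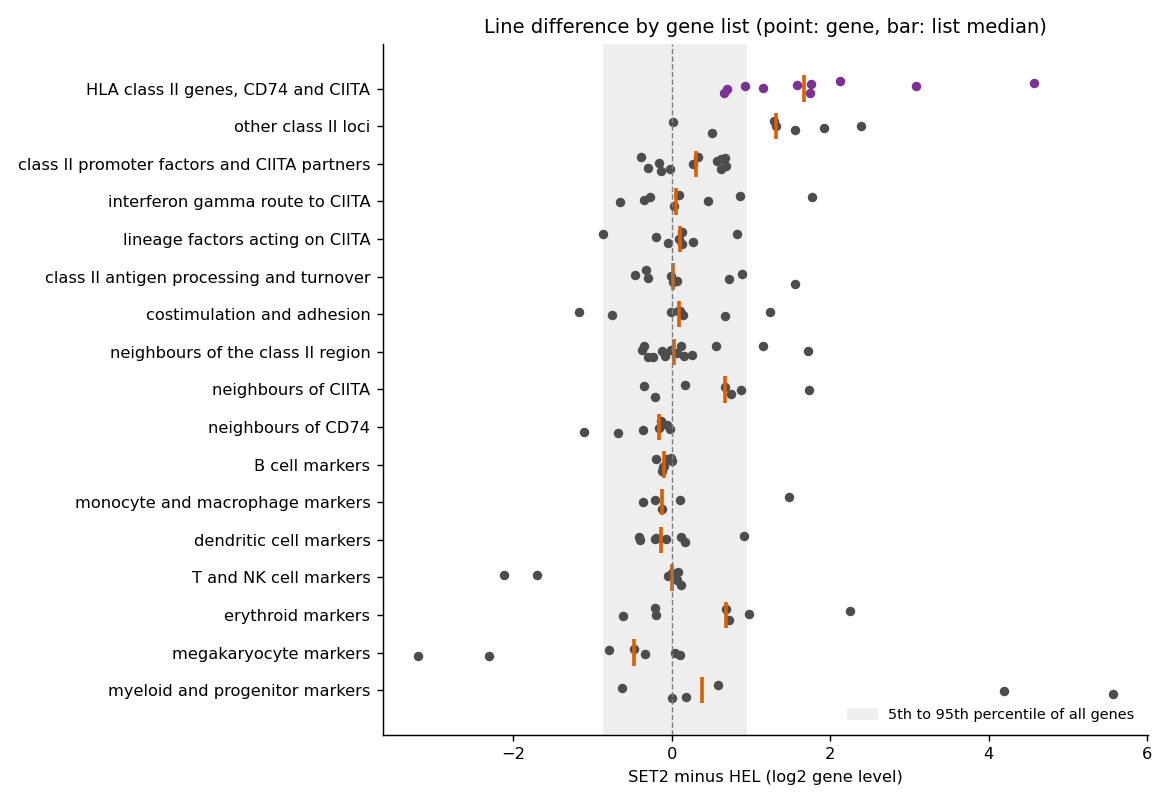
SET2 minus HEL (log2 gene level) for each gene of the members and of 16 further lists; points are genes, orange bars are list medians, and the grey band spans the 5th to the 95th percentile of all genes. The members (purple) have a median of 1.66 and the other class II loci 1.32, while the B cell marker list has -0.10.

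Genes outside the group whose profile lay closest to it were ranked by Euclidean distance between profiles over the 6 arrays, each centred on its own mean, among 11152 genes at or above the median level. Closest to the mean of the members were ALDH1A1 (distance 0.154), E2F8 (0.191), TNXA (0.198), LOC389906 (0.199) and SYNGR1 (0.202). ALDH1A1, a retinal-oxidising enzyme, stood at 9.13, 9.12 and 9.06 in HEL and at 10.91, 11.04 and 10.97 in SET2. Of these 5, TNXA alone lies on chromosome 6. Closest to CIITA alone were MARCKS (0.129), PKD1P5 (0.162), RNASE1 (0.205), STARD5 (0.266) and DDHD1 (0.289). MARCKS, a substrate of protein kinase C, stood at 5.34, 5.29 and 5.44 in HEL and at 7.42, 7.64 and 7.40 in SET2. With 6 arrays in a pair of lines, such likeness rests mainly on the line difference.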

How the data were processed

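Transcript levels in HEL and SET2 were measured on 6 GeneChip Human Gene 2.0 ST arrays, with 1 array per line and construct. The log2 values were taken as the authors deposited them, and per the submitters' processing notes they come from Affymetrix Expression Console. How background, summary and scaling were handled, and the genome build, is not given in the sources used here. Values ran from 1.61 to 13.99, from which the log2 scale was read. No scanner file was used here, hence no detection call exists for any probe set, and precision is limited by the number of arrays.

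Of 352859 probe sets, 259224 carried 1 gene symbol and were averaged into 22320 genes, 13116 named several and 80519 none. Gene levels were fitted with limma 3.58.1 (lmFit, eBayes) in R 4.3.3 with construct and cell line as terms, which left 2 residual and 4.78 prior degrees of freedom. Two-sided p-values were adjusted by Benjamini-Hochberg over all genes. Replicate 1 is HEL and replicate 2 is SET2 in each group, so the same-numbered arrays share a cell line, and the line is the block. With 1 array per line and construct, a gene's own spread is how far HEL and SET2 disagree on the differences of both constructs. For the SEs, intervals and p-values, eBayes drew that spread toward a value taken from all genes. That shared value carries the prior degrees of freedom, which outnumber the residual ones. No replicate culture enters either. The fit was tested on simulated data. Tables and plots used pandas 2.3.3 and matplotlib 3.10.9 under Python 3.11.15.

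The members and all gene lists were chosen with earlier results of these data known. Named were all members with their brightest, dimmest and most differing probe sets, IGF1R, the 3 genes of each list with the largest line difference, the RFX subunits and the 5 nearest profiles to the members and to CIITA. Alternatives were the median or brightest probe set, filters at the median level of probe sets (5.66) or genes (5.55), quantile normalization, median centring, no block, each array left out, and repeated probe sets counted once.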

Additional observations from a re-analysis of the deposited data

Results flagged for a closer look

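For 5 comparisons the difference from control had opposite signs in HEL and SET2, by at least 0.1 on the log2 scale in each line. With 1 array per line and construct, none of these differences between the lines was tested. Under the IGF1R shRNA label, CD74 stood at -0.328 in HEL and at 0.499 in SET2, so that the SET2 difference exceeded that of HEL by 0.83. The same quantity was 0.41 for HLA-DQA1 (-0.148 and 0.263), 0.38 for CIITA (-0.121 and 0.256) and 0.35 for HLA-DRB1 (-0.125 and 0.225), the last from 2 dim probe sets. Under the sponge, HLA-DOA stood at -0.131 in HEL and at 0.391 in SET2, a gap of 0.52.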

How the results depend on the processing

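The line difference stayed positive for all 10 members under every alternative that kept them (137 values, of which 20 moved by more than the spread of the arrays). With an array left out its sign could not turn, because every SET2 array lay above every HEL array for each member. Leaving out the HEL or the SET2 array of a construct gives the same line difference. The fit without a block and the filter on dim genes return the main value. The 137 values are therefore not as many separate checks. The median line difference was 1.66, from 1.48 to 1.77 with an array left out and 2.27 with the brightest probe set, where HLA-DMB stood at 0.13 and HLA-DRB1 at 0.27. No member was called for either construct under any alternative, the adjusted p running from 0.1414 (HLA-DMB without the SET2 array labelled IGF1R shRNA) to 1 for the IGF1R shRNA and from 0.9473 to 1 for the sponge. No replicate block, that is, a fit without the cell line, left 0 members called. In this balanced layout it cannot change the averages, and the line difference enters the spread. The SE of HLA-DRA under the IGF1R shRNA was 2.50 in place of 0.15, so this alternative could show little. The filter on dim genes dropped HLA-DRB1 and HLA-DOA, and that on dim probe sets dropped HLA-DRB1.

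The median change of the members under the IGF1R shRNA was 0.104, from -0.034 (without the SET2 array of that label) to 0.277 with an array left out. It was smaller with the median of the probe sets (0.0475), the brightest (0.0125) and dim probe sets left out (0.044), and 0.136 after quantile normalization and 0.134 after median centring. Under the sponge it was 0.0048, from -0.118 to 0.113 with an array left out, 0.026 with the median of the probe sets, -0.005 with the brightest, -0.042 with dim genes left out and 0.017 after quantile normalization. Signs of single genes turned in places, and the cause was not tested. For the IGF1R shRNA the median of the probe sets gave 0.015 for HLA-DPA1, -0.055 for HLA-DPB1 and CD74 and -0.03 for HLA-DQA1. The brightest gave -0.14 for HLA-DRB1, 0.115 for HLA-DPA1, -0.67 for HLA-DQA1, -0.345 for HLA-DMA and -0.025 for CIITA. For the sponge the median gave 0.66 for HLA-DPA1, 0.0175 for HLA-DMB and -0.08 for CIITA, and the brightest gave -0.06 for HLA-DPB1, 0.09 for HLA-DQA1, -0.26 for HLA-DMA, 0.16 for HLA-DMB, -0.10 for HLA-DOA and 0.05 for CD74. Without dim probe sets HLA-DOA stood at -0.116 and CD74 at -0.077 for the shRNA, and CD74 at 0.018 for the sponge.

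With an array left out, averages that changed sign ran, for the IGF1R shRNA, from -0.323 to 0.494 for CD74, -0.177 to 0.311 for CIITA, -0.187 to 0.302 for HLA-DQA1, -0.151 to 0.251 for HLA-DRB1 and -0.0725 to 0.352 for HLA-DOA. For the sponge they ran from -0.265 to 0.159 for CD74, -0.114 to 0.296 for CIITA, -0.123 to 0.205 for HLA-DMA, -0.192 to 0.129 for HLA-DMB, -0.0821 to 0.342 for HLA-DOA, -0.0603 to 0.207 for HLA-DPB1, -0.280 to 0.0808 for HLA-DQA1 and -0.0525 to 0.228 for HLA-DRB1. A single array remained for 1 group in these fits, and it is assumed to vary like the others.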
